A study of Mus musculus with 4 samples.

Results

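The genes described here encode the integrin subunits and laminin chains of the mouse. They were taken as all gene probes of the array whose name was that of an integrin alpha or beta subunit or of a laminin alpha, beta or gamma chain, which gave 78 of 41174 gene probes and 35 genes, 25 of them integrins and 10 laminins. RNA of mouse embryonic fibroblasts (MEFs), harvested after several passages, and of a clone of induced pluripotent stem (iPS) cells was compared with RNA of CGR8.8, a line of embryonic stem (ES) cells. Both the ES cells and the iPS clone were kept in 1000 IU/ml leukemia inhibitory factor (LIF), and the clone was harvested 30 days after transduction. The iPS RNA thus stands for 1 clone, and the factors transduced, the strain of the MEFs and the passage number are not given in the sources used here. Each of 4 arrays carried ES RNA in green (Cy3), with MEF RNA in red (Cy5) on 2 arrays and iPS RNA in red on 2 arrays.

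Integrins are receptors that span the plasma membrane as pairs of an alpha and a beta subunit, and the pair decides which ligand is bound. Laminins are secreted trimers of an alpha, a beta and a gamma chain that polymerise in basement membranes, the thin sheets under epithelia and around muscle, fat and Schwann cells. In the early embryo, laminins and the integrins that contain the beta 1 subunit hold the epiblast to its basement membrane, and fibroblasts in culture use integrins to grip fibronectin, vitronectin and collagen.

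In green, 62% to 63.4% of all gene probes lay well above background, and in red 61.1% to 63.2%. The log2 ratios of replicate arrays correlated across probes at 0.989 (MEF) and 0.992 (iPS). All 12 tested fibroblast markers were higher in MEFs than in ES cells and all 9 tested markers of pluripotent cells were lower there. The iPS clone was higher than ES cells for 5 of those 9 markers and lower for 1, Pou5f1 (-1.35 ± 0.078), and it was lower than MEFs for all 12 fibroblast markers. Of all tested genes, 13.8% were higher and 13.6% lower in MEFs, and 9.08% and 11.8% in iPS cells over ES cells. In iPS cells over MEFs, 18.8% were lower. The arrays of a group are labelled as biological replicates, with no word on separate cultures, and p-values cover only the spread among these arrays, which may be technical. RNA of whole cultures was measured, so fewer cells of a type and less RNA per cell cannot be told apart.

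A probe stands for a single stretch of a transcript, and for several genes probes of different stretches gave different values. The cause of these differences was not tested. Probes that span far more of the genome than their own 60 bases were taken to cross an exon junction of the spliced RNA. Of the integrin and laminin probes, 14 spanned over 100 genome bases. The sequences below, from the array files, are those to which the results on variants and on the laminin chains refer. Capitals mark the 29 bases that the overlapping pair of Lama4 probes share, and all other letters are in lower case. Positions are on the build mm8, and no exon annotation of that build was used here.
Itgae, first accession, chr11:72961798-72963256, plus strand: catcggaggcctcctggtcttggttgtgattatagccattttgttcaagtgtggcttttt
Itgae, second accession, chr11:72947929-72948914, plus strand: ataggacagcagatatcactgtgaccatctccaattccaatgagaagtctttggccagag
Itgb1, junction probe, chr8:131613121-131618139, plus strand: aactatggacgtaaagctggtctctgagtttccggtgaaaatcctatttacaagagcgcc
Lama1, brighter probe, chr17:67722621-67723583, plus strand: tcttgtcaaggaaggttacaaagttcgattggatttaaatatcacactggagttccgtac
Lama4, brightest tested probe, chr10:38794642-38795432, plus strand: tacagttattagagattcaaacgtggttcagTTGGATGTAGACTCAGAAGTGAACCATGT
Lama4, overlapping probe, chr10:38795404-38795463, plus strand: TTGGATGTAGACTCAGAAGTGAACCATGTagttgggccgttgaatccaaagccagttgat
Lama2, second probe, chr10:26680324-26682334, minus strand: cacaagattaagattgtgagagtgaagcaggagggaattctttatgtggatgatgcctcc
Lamb3, only probe, chr1:195041618-195044149, plus strand: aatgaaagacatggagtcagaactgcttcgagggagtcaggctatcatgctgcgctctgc
Itga3, junction probe, chr11:94870261-94871838, minus strand: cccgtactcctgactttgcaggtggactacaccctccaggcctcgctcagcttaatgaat

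Of the 78 probes, 52 were well above background on all arrays of at least 1 of the RNAs, and 47 had no missing array and were tested, together with all other probes (24874 in all). They cover 28 genes, 19 integrins and 9 laminins. A call needed a change of at least 2-fold and an adjusted p (Benjamini-Hochberg, limma fit) under 0.05, and a gene with several probes is described by its brightest tested probe. Values are log2 ratios, and errors are standard errors of that fit (n = 2 arrays). Of the 47 tested probes, 8 passed the filter through 1 RNA only, and the brightest probes of Itga2b, Itgb8, Lama2 and Lamb3 are among them. For these probes a higher value in that RNA is partly built into their being tested, so their calls are weaker evidence.

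In MEFs, 17 of the 47 probes were called higher than in ES cells, where 12.8% of all tested probes were, and 10 were called lower, against 12.4% of all. By gene, 12 of 28 rose and 8 fell (all tested genes, 13.8% and 13.6%). In iPS cells over ES cells, 6 probes were called higher and 14 lower, against 8% and 10.7% of all tested probes. By gene, 4 of 28 rose and 10 fell (all tested genes, 9.08% and 11.8%). The median over the 28 genes was 0.34 in MEFs and -0.36 in iPS cells, where all tested genes had -0.01 and 0.01. Adjusted p-values of the called genes (limma fit) ran from 5.01e-09 to 1.83e-05 in MEFs and from 1.57e-08 to 2.96e-05 in iPS cells. Both ends in MEFs (Lama2, then Lamb3) and the upper end in iPS cells (Lamb3) came from probes past the filter through 1 RNA only. Those values are thus weaker evidence. With no minimum fold, 26 of the 47 probes passed the adjusted p as higher and 19 as lower in MEFs, against 40.4% and 42.1% of all tested probes. For iPS cells over ES cells 12 and 25 passed, against 38.1% and 40%. These comparisons share the ES line as their control.

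These counts rest on the background correction. The normexp model was fitted over spots that the scanner software had not marked as outliers. Fitted over all spots, it left 1 rise and 0 falls in MEFs among the 47 probes, and 51 rises and 49 falls among all tested probes, in place of 3174 and 3095. In iPS cells over ES cells it left 4 rises and 5 falls among the 47. On the array of MEF replicate 1, the median size of the ratios of the 28 genes was then 0.06 in place of 1.30, while it was 1.24 and 1.25 on the array of MEF replicate 2 and did not move on the iPS arrays (1.00 and 0.91). The array of MEF replicate 1 held 14 spots with a local background above 500, all of them marked. With normexp over all spots and MEF replicate 1 left out, an alternative chosen after seeing the data, 17 probes were called higher and 11 lower in MEFs.

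**Figure D1:**
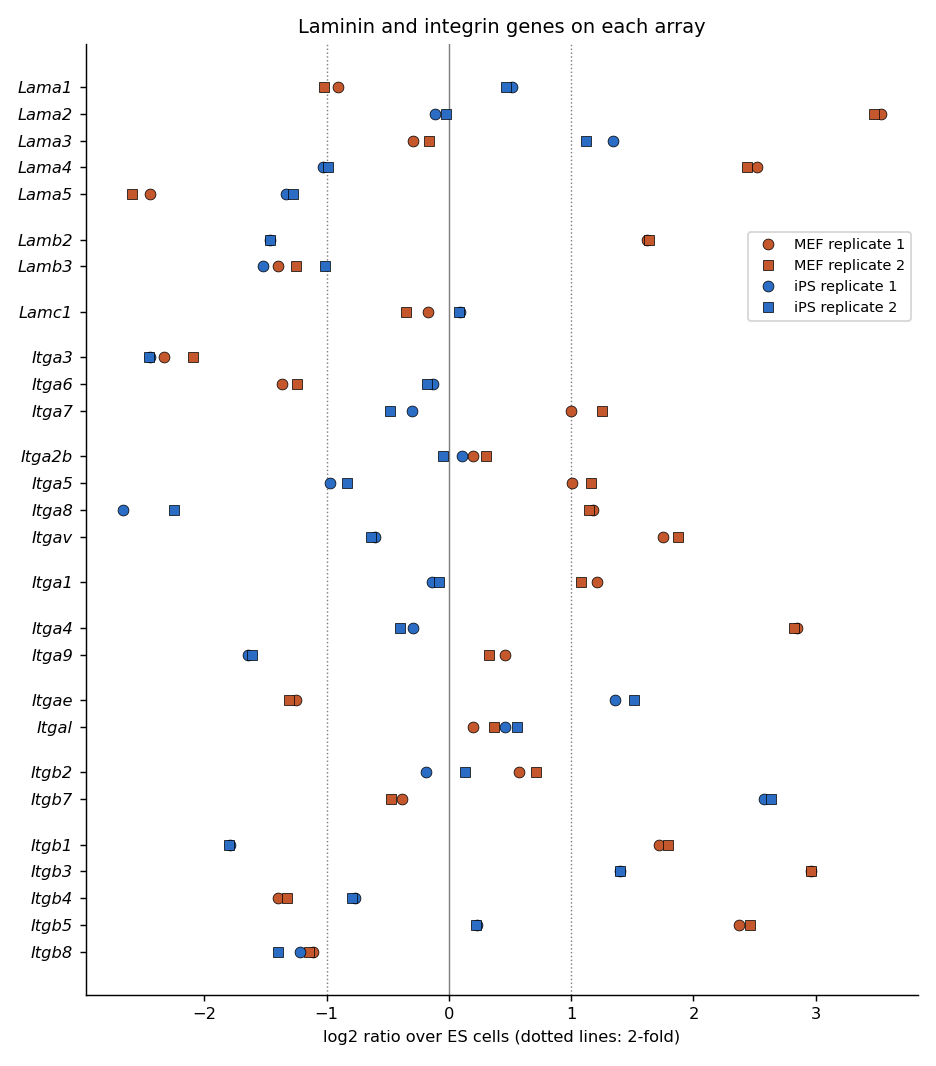
Log2 ratio over ES cells (horizontal axis) on each array for the brightest tested probe of 27 laminin and integrin genes (rows, grouped by role); circles are replicate 1 and squares replicate 2, MEFs in orange and iPS cells in blue, and dotted lines mark 2-fold. MEF and iPS arrays lie on opposite sides of 0 for Itgb1, Lamb2, Lama4 and Itga8, near 1.72 and -1.79 for Itgb1.

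Among the laminin alpha chains, which carry the sites that cells bind, MEFs had more Lama2 and Lama4 and less Lama5 than ES cells. Lama2 encodes the alpha chain typical of muscle and nerve basement membranes. Its ratios were 3.53 and 3.48 on the MEF arrays and -0.11 and -0.02 on the iPS arrays. It was well above background in MEFs only and passed the filter through them alone, so a rise there was partly built in. It stood at least 11.4-fold higher in MEFs than in ES cells. The second Lama2 probe, shown above, read 2.45 and 2.16 in MEFs and was also dim in both other RNAs.

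Lama4 encodes the alpha chain of vessels and of mesenchyme. Its brightest tested probe read 2.52 and 2.44 in MEFs and -1.03 and -0.99 in iPS cells, so the groups lay on opposite sides of ES cells. The rise in MEFs was 2.48 ± 0.049. In iPS cells the probe was not well above background, and it was at least 1.96-fold lower than in ES cells (adjusted p = 1.15e-06). That call was the closest to the 2-fold limit among the 28 genes and ended without iPS replicate 1 (-0.99) and with median centring (-0.95). The overlapping probe, which shares 29 bases with it, read 2.73 and 2.86 in MEFs and -1.43 on the 1 iPS array that gave a value.

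Lama5 encodes the alpha chain found in most epithelial basement membranes and made by pluripotent cells. Its ratios were -2.44 and -2.59 in MEFs and -1.33 and -1.27 in iPS cells. It fell in both, by 2.51 ± 0.055 and by 1.30 ± 0.055, and the iPS call ended with median centring (-0.85). Lama1, the alpha chain of the first embryonic basement membranes, read -0.91 and -1.02 in MEFs and 0.52 and 0.47 in iPS cells. Neither value was called (-0.96 ± 0.052 and 0.49 ± 0.052), and without MEF replicate 1 the MEF value passed the limit (-1.02). Lama3, an alpha chain of skin and other epithelia, read -0.29 and -0.16 in MEFs, where it was not well above background, and 1.34 and 1.12 in iPS cells, where it rose by 1.23 ± 0.067. Its second probe, toward the other end of the gene, read 0.15 and 0.09 in MEFs and 0.22 and -0.01 in iPS cells and was not called.

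Among the beta and gamma chains, Lamb2, a beta chain of muscle, kidney and nerve basement membranes, rose in MEFs and fell in iPS cells. Its ratios were 1.62 and 1.64 in MEFs and -1.46 on both iPS arrays, with changes of 1.63 ± 0.046 and -1.46 ± 0.046. The beta 1 chain, named Lamb1-1 on the array and so outside the name rule, stood at 0.74 ± 0.06 in MEFs, short of 2-fold, and fell by 2.05 ± 0.06 in iPS cells. Lamb3, the beta chain that joins Lama3 in the laminin of skin, was lower in both. It was well above background in ES cells only and passed the filter through them alone. It was at least 2.45-fold lower in MEFs and at least 2.25-fold lower in iPS cells. Lamc1, the gamma chain of most laminins, read -0.17 and -0.35 in MEFs, 0.33 as a mean with median centring, and 0.09 and 0.08 in iPS cells. It was not called in any comparison. Of all 9 tested laminin genes, 3 rose and 3 fell in MEFs (all tested genes, 13.8% and 13.6%), and 1 rose and 5 fell in iPS cells (9.08% and 11.8%).

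The alpha subunits that bind laminin went different ways. Itga3 forms a receptor for the laminins of epithelia. Its ratios were -2.33 and -2.09 in MEFs and -2.44 and -2.45 in iPS cells, so all 4 arrays were low and the groups lay close together. It fell by 2.21 ± 0.064 and by 2.44 ± 0.064, and a second probe gave -2.68 ± 0.067 and -2.87 ± 0.067. The junction probe shown above lies 5′ of these on the minus strand, and it read only -0.16 and -0.31 in MEFs and -0.84 on the 1 iPS array with a value. Itga6 pairs with the beta 1 or beta 4 subunit and is a surface marker of stem cells. Its brightest probe read -1.36 and -1.24 in MEFs and -0.13 and -0.18 in iPS cells. It fell in MEFs by 1.30 ± 0.052, a call that ended with median centring (-0.81), and stood at -0.16 ± 0.052 in iPS cells, or 0.33 with median centring. Itga7, the laminin receptor of muscle, read 1.00 and 1.25 in MEFs and -0.30 and -0.48 in iPS cells. It rose in MEFs by 1.12 ± 0.073, while its second probe read 0.75 and 0.84 and was not called.

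Of the 4 tested alpha subunits that recognise the RGD motif of fibronectin and vitronectin, 3 rose and 0 fell in MEFs, where 13.8% and 13.6% of all tested genes did. Itgav, part of the vitronectin receptors, read 1.75 and 1.87 in MEFs and -0.60 and -0.64 in iPS cells, a rise of 1.81 ± 0.051 in MEFs. Itga5, the alpha subunit of the main fibronectin receptor, read 1.01 and 1.16 in MEFs and -0.97 and -0.83 in iPS cells. It rose by 1.08 ± 0.059 in MEFs and its value of -0.90 ± 0.059 in iPS cells did not reach 2-fold. Itga8, a receptor of nephronectin in kidney development and of mesenchymal cells, read 1.18 and 1.15 in MEFs and -2.66 and -2.25 in iPS cells. It rose by 1.17 ± 0.09 in MEFs and fell by 2.46 ± 0.09 in iPS cells, with Itga3 the deepest fall of the 28 genes there. The second Itga8 probe read 1.1 on both MEF arrays and -1.83 and -2.13 on the iPS arrays. Itga2b, the alpha subunit of the platelet fibrinogen receptor, stayed between -0.05 and 0.30 on all 4 arrays.

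Of the collagen receptor subunits, Itga1 and Itga11 could be read and Itga2 and Itga10 were not well above background. Itga11, a receptor of fibrillar collagen on fibroblasts, read 4.27 and 4.32 in MEFs, higher than any other integrin or laminin probe. One of its iPS spots was marked as an outlier and the other array read -1.47, so it was not tested with the rest. With missing arrays allowed, it was 4.30 ± 0.05 in MEFs (adjusted p = 1.21e-08) and -1.47 in iPS cells, the latter from a single array. Itga1 read 1.21 and 1.08 in MEFs and -0.14 and -0.08 in iPS cells, a rise of 1.14 ± 0.053 in MEFs.

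Itga4 and Itga9, related subunits that bind fibronectin, the adhesion molecule VCAM1 and tenascin, differed from each other. Itga4 read 2.85 and 2.82 in MEFs and -0.29 and -0.40 in iPS cells, where it was not well above background, a rise of 2.84 ± 0.051 in MEFs. A second, dimmer probe read 1.11 and 1.02 there. That probe passed the filter through MEFs alone, so a higher value there was partly built in. Itga9 read 0.46 and 0.33 in MEFs, which was not called, and -1.64 and -1.61 in iPS cells, where it fell by 1.63 ± 0.053.

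The beta subunits set which receptors can form. Itgb1, the partner of most alpha subunits, read 1.72 and 1.79 in MEFs and -1.79 and -1.80 in iPS cells. It rose by 1.75 ± 0.048 and fell by 1.80 ± 0.048, and a second probe gave 1.60 ± 0.063 and -1.48 ± 0.063. The brighter probe was printed 10 times on each array, and its spots on 1 array had a standard deviation of 0.038 to 0.054, which measures printing and reading and not the spread between cultures. The Itgb1 junction probe shown above spans 5019 genome bases and comes from a GenBank record of its own. It was not well above background in any RNA, with ratios between -0.10 and 0.15, so a splice form of Itgb1 with that junction was not detectable here.

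Itgb3, the beta subunit of the vitronectin and platelet fibrinogen receptors, read 2.96 on both MEF arrays and 1.40 on both iPS arrays. It was called higher in both (2.96 ± 0.046 and 1.40 ± 0.046). Its second probe, from the RefSeq record, read 0.73 and 0.65 in MEFs and 0.89 and 0.87 in iPS cells and was not called. Itgb5, another vitronectin receptor subunit, read 2.37 and 2.46 in MEFs and 0.23 and 0.22 in iPS cells, a rise of 2.42 ± 0.049 in MEFs. Itgb4, which pairs with alpha 6 in the hemidesmosomes of epithelia, read -1.40 and -1.32 in MEFs and -0.77 and -0.79 in iPS cells. It fell in MEFs by 1.36 ± 0.049 and stood at -0.78 ± 0.049 in iPS cells. Itgb8, which binds latent TGF-beta together with alpha v, read -1.11 and -1.14 in MEFs and -1.22 and -1.40 in iPS cells. It fell in both, by 1.12 ± 0.057 and 1.31 ± 0.057, and was well above background on only 1 of 2 arrays of each group. It passed the filter through ES cells alone.

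Of the 28 genes, the largest rise in the iPS clone was that of an integrin subunit best known from leukocytes. Itgb7, which pairs with alpha 4 or alpha E on lymphocytes, read -0.38 and -0.47 in MEFs and 2.58 and 2.63 in iPS cells. It rose by 2.61 ± 0.05 in iPS cells and stood at -0.42 ± 0.05 in MEFs. Itgae, its alpha E partner that binds E-cadherin, read -1.25 and -1.31 in MEFs and 1.36 and 1.51 in iPS cells. It fell by 1.28 ± 0.055 in MEFs, where it was well above background on 1 of 2 arrays, and rose by 1.43 ± 0.055 in iPS cells. The probe of the second Itgae accession was not well above background in any RNA. Cdh1, which encodes E-cadherin, fell by 5.75 in MEFs and by 1.28 in iPS cells. Itgal and Itgb2, the subunits of the leukocyte receptor LFA-1, were not called on their brightest probes: Itgal read 0.20 and 0.37 in MEFs and 0.46 and 0.56 in iPS cells, and Itgb2 read 0.57 and 0.71 and then -0.19 and 0.13. A second Itgal probe was well above background in iPS cells only and passed the filter through them alone. It was at least 2.94-fold higher there than in ES cells. Itgam and Itgax, the alpha subunits of myeloid cells, were not well above background.

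Markers of leukocytes were measured beside these genes. All tested genes had 13.8% higher and 13.6% lower in MEFs, and 9.08% and 11.8% in iPS cells. Of 14 tested leukocyte markers, 7 were higher and 2 lower in MEFs, and 1, Laptm5 (1.53 ± 0.05), was higher and 3 lower in iPS cells. Over the 15 with a value on every array, the summed normalised intensity ran from 3050 to 3150 in ES cells, 9100 to 9580 in MEFs and 2570 to 2610 in iPS cells; 8 of them in ES cells and 6 in iPS cells were dim on all arrays. Ptprc (CD45), which defines leukocytes, was not well above background in ES or iPS cells and read 0.30 and 0.20 on the MEF arrays, and Lyz2 stood at 4.88 ± 0.068 in MEFs. The part of such cells in the integrin values of MEFs and of the iPS clone was not tested.

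**Figure D2:**
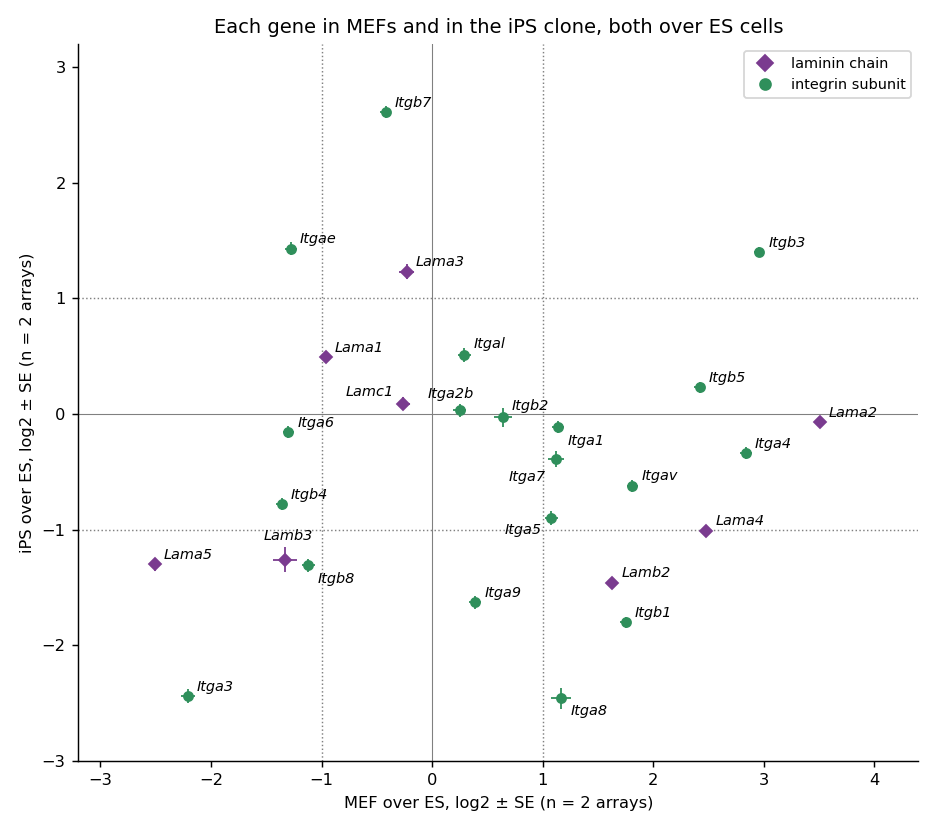
Log2 ratio over ES cells in MEFs (horizontal) and in the iPS clone (vertical) for 27 genes, with bars of 1 standard error (n = 2 arrays each); diamonds are laminin chains, circles integrin subunits, and dotted lines mark 2-fold. Itgb1, Lamb2, Itga8 and Lama4 lie at the lower right, Itgae at the upper left, and Itgb3 alone at the upper right (2.96 and 1.40); Lama2, Lama3, Lama4, Lamb3 and Itga4 are plotted as fitted although they were not well above background in 1 or more RNAs.

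Set against MEFs, the iPS clone had less Itgb1 and more Itgb7 and Itgae. Of the 47 probes, 7 were called higher and 19 lower, against 15.4% and 17.7% of all tested probes. With no minimum fold, 16 passed the adjusted p as higher and 24 as lower, against 40.2% and 39.7% of all. By gene, 6 rose and 13 fell of 28 (all tested genes, 17% and 18.8%), 3 and 10 of the 19 integrins and 3 and 3 of the 9 laminins, with adjusted p from 1.37e-08 to 6.3e-06. The rises were Itgb7 (3.03 ± 0.071), Itgae (2.71 ± 0.077), Lama1 (1.46 ± 0.073), Lama5 (1.21 ± 0.078), Itga6 (1.14 ± 0.073) and Lama3, which was not well above background in MEFs (adjusted p = 4.91e-06). The deepest falls among genes well above background on both sides were Itga8 (-3.62 ± 0.13), Itgb1 (-3.55 ± 0.067) and Lamb2 (-3.09 ± 0.065). Itga4, Lama2 and Lama4 also fell but were not well above background in iPS cells. Itga4 was at least 8.98-fold lower than in MEFs. Lama2, which passed the filter through MEFs alone, and Lama4 (adjusted p = 1.58e-08, limma fit) are given by direction alone. The other falls were Itgav (-2.43 ± 0.072), Itgb5 (-2.19 ± 0.069), Itga9 (-2.02 ± 0.074), Itga5 (-1.99 ± 0.084), Itgb3 (-1.56 ± 0.065), Itga7 (-1.52 ± 0.1) and Itga1 (-1.25 ± 0.075). The second Itgb3 probe pointed the other way (0.19 ± 0.068) and was not called. The other Itga1 probes stood at -0.94 ± 0.076 and 0.01 ± 0.11 and were not called. Some other probes of Itgav, Itga6, Lama1 and Lama3 were also not called in this comparison. Itga3 (-0.23 ± 0.091) and Itgb8 (-0.18 ± 0.081) did not reach 2-fold between iPS cells and MEFs. With normexp over all spots 3 probes were called higher and 5 lower.

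Probes of one gene did not always give one answer. Of the 28 genes, 16 had several tested probes, and for 11 of them a probe was called in some comparison where another was not. The same share over all genes of the array is not given here. Some of these probes only fell on either side of 2-fold, such as those of Itga7 in MEFs (1.12 and 0.80). Itga6 was the widest case: in MEFs its probes read -1.36 and -1.24, then -0.53 and -0.36, then 0.53 and 0.40. In iPS cells the last of these, from a cDNA clone and well above background on 3 of 4 ES arrays, was called higher (1.07 ± 0.063), and the RefSeq probe stood at 0.20 ± 0.059. The 3 Itga1 probes ran from 1.14 ± 0.053 through 0.78 ± 0.054 to 0.04 ± 0.075 in MEFs, the latter from a probe toward the 5′ end. For Itgav a second probe rose in MEFs as well (1.58 and 1.64), while another, from a cDNA clone, read 0.63 and 0.27. The second Itgb4 probe read -0.08 and -0.46 in MEFs and the second Itgb8 probe -0.20 and -0.13, and neither was called. The second Itgal probe, called higher in iPS cells, read -0.28 and -0.19 in MEFs and 1.65 and 1.46 in iPS cells. A second Lama4 probe was called higher in MEFs (1.64 and 1.57) but not lower in iPS cells (-0.62 and -0.49), where it was not well above background. The second Lama1 probe read -0.37 and -0.35 in MEFs and 0.65 and 0.50 in iPS cells. Between iPS cells and MEFs it fell short of 2-fold as fitted and was not called. It was not well above background in MEFs and passed the filter through iPS cells alone. Of the 20 probes designed on RIKEN cDNA clones, 10 passed the filter, against 38 of the 52 designed on RefSeq records. How these kinds of probe fared over the whole array is not given here.

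**Figure D3:**
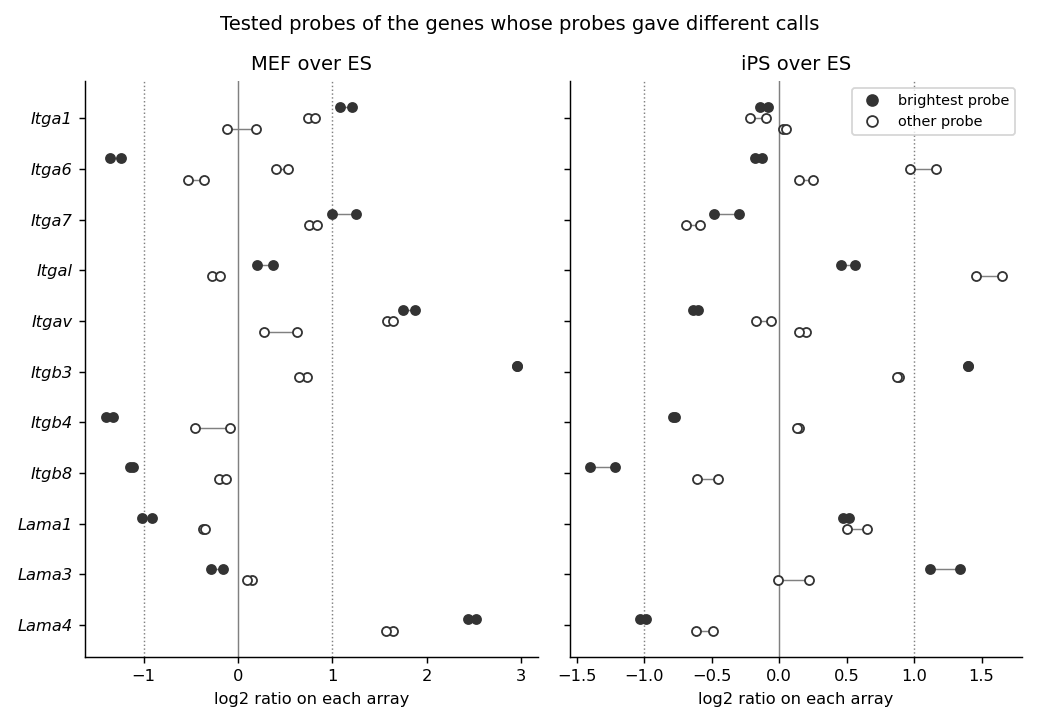
Log2 ratio over ES cells on each of the 2 arrays of a group, joined by a line, for every tested probe of the 11 genes whose probes gave different calls (left, MEFs; right, iPS cells); filled circles are the brightest probe of the gene and open circles the others. The probes of Itga6 lie on both sides of 0 in MEFs, and those of Itgb3 lie at 2.96 and 0.69.

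The other genes without a tested probe were Itgb6, the beta subunit of an epithelial receptor that activates TGF-beta, and Lamc3, a gamma chain of few tissues. Like Itga2, Itga10, Itgam and Itgax, they had no probe past the filter, and their ratios, such as 0.15 and -0.07 for Itgb6 in MEFs, bound nothing about their levels. Without any filter, 68 of the 78 probes had a value on every array and the counts of calls among them were as above.

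Genes listed as partners of laminins and integrins were read next. Over all tested genes, 13.8% rose and 13.6% fell in MEFs, and 9.08% and 11.8% in iPS cells over ES cells. In iPS cells over MEFs, 17% rose and 18.8% fell. Of 20 tested partners of laminin in basement membranes, 9 rose and 5 fell in MEFs (median 0.83), and 1 rose and 8 fell in iPS cells (-0.57), with 3 rises and 11 falls in iPS cells over MEFs (-1.32). In MEFs, Nid1 (2.77 ± 0.058), which links laminin to collagen IV, and Col4a1 (2.45 ± 0.046) rose most, while Frem2 (-3.30 ± 0.073), a protein of embryonic basement membranes, and Nid2 (-1.85 ± 0.054) fell most. In iPS cells, Smoc1 (1.14 ± 0.06) rose and Frem2 (-3.10 ± 0.073) fell, and Col4a6 was at least 6.47-fold lower and not well above background. Between iPS cells and MEFs, Nid2 (2.02 ± 0.076) and Col18a1 (1.11 ± 0.068) were higher, and Sparc (-3.71 ± 0.067) and Col4a1 (-3.64 ± 0.065) lower.

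Of 14 tested laminin receptors that are no integrins, 5 rose and 2 fell in MEFs (median 0.55). In iPS cells 1 rose and 5 fell (-0.57), and in iPS cells over MEFs 2 rose and 8 fell (-1.27). All tested genes had 13.8% and 13.6%, 9.08% and 11.8%, and 17% and 18.8% in these comparisons. The syndecan Sdc2 (2.88 ± 0.046) and the sarcoglycan Sgcb (1.78 ± 0.046) rose in MEFs, and Bcam (-2.69 ± 0.082), a receptor for laminin alpha 5, and Rpsa (-1.19 ± 0.086), a ribosomal protein with many gene copies that is also described as a laminin receptor, fell. In iPS cells Sdc4 (2.60 ± 0.066) rose, and Lgals3 (-3.13 ± 0.048), the lectin galectin-3, and Sgce (-2.57 ± 0.048) fell. Between iPS cells and MEFs, Sdc4 (1.24 ± 0.093) and Bcam (1.08 ± 0.12) were higher, and Lgals3 (-3.95 ± 0.068) and Sdc2 (-3.75 ± 0.065) lower.

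Of 29 tested integrin ligands other than laminin, 18 rose and 3 fell in MEFs (median 2.20). In iPS cells 4 rose and 12 fell (-0.41), and in iPS cells over MEFs 4 rose and 20 fell (-2.55). All tested genes had 13.8% and 13.6%, 9.08% and 11.8%, and 17% and 18.8% in these comparisons. The collagens Col6a3 (5.02 ± 0.068) and Col3a1 (4.97 ± 0.057) rose in MEFs, and Cdh1 (-5.75 ± 0.059) and Madcam1 (-1.59 ± 0.077), the ligand of alpha 4 beta 7, fell. In iPS cells Vwf (2.88 ± 0.071), von Willebrand factor, and Spp1 (2.35 ± 0.048), osteopontin, rose, and Col1a1 (-5.77 ± 0.048) and Thbs1 (-4.71 ± 0.059) fell. Between iPS cells and MEFs, Cdh1 (4.47 ± 0.083) and Vwf (2.80 ± 0.1) were higher, and Col1a1 (-10.09 ± 0.067) and Col1a2 (-9.31 ± 0.066) lower. The ligands Col1a1, Col1a2, Col3a1, Postn and Fbn1 are also on the list of fibroblast markers, and Cdh1 is on that of epithelial markers. The ligand counts are thus not separate from those of the markers.

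Of 46 tested genes listed as integrin adaptors and signalling genes, 14 rose and 2 fell in MEFs (median 0.53). In iPS cells 3 rose and 15 fell (-0.47), and in iPS cells over MEFs 2 rose and 24 fell (-1.03). All tested genes had 13.8% and 13.6%, 9.08% and 11.8%, and 17% and 18.8% in these comparisons. Itgb3bp and Itgb4bp carry integrin names, and no role of theirs at integrins was tested here. Cav1 (4.45 ± 0.052), caveolin, and Apbb1ip, an adaptor that brings talin to integrins and was at least 14.8-fold higher, rose most in MEFs. Fermt1 (-2.38 ± 0.074), the kindlin of epithelia, and Itgb3bp (-2.04 ± 0.046) fell there. In iPS cells, Cd9 (1.85 ± 0.05), a tetraspanin, and Tln2 (1.33 ± 0.046), a talin, rose, Flnc (-4.07 ± 0.056), a filamin, fell, and Cav1 was at least 74.5-fold lower and not well above background. Between iPS cells and MEFs, Itgb3bp (1.91 ± 0.065) and Cd9 (1.31 ± 0.071) were higher, Parva (-4.56 ± 0.076), which binds integrin-linked kinase, was lower, and Cav1 was at least 1350-fold lower.

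**Figure D4:**
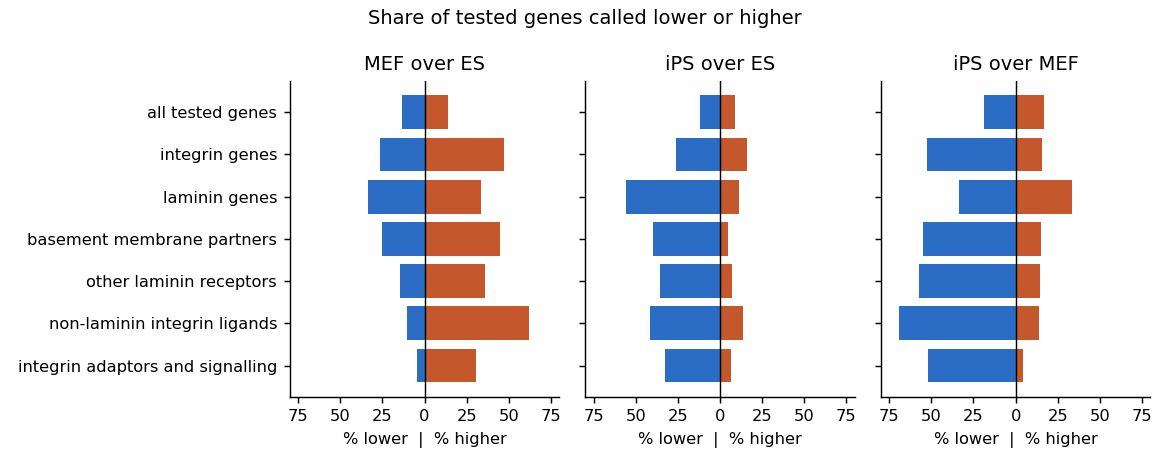
Share of tested genes called lower (blue, left of 0) or higher (orange, right of 0), in percent, for all tested genes, the 19 integrin and 9 laminin genes and the 4 lists of partner genes, in each of the 3 comparisons. All tested genes had 13.8% higher and 13.6% lower in MEFs; the integrin ligands other than laminin had 18 of 29 higher and 3 of 29 lower.

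Markers of other cell types were read in the same way. All tested genes had 13.8% higher and 13.6% lower in MEFs, and 9.08% and 11.8% in iPS cells over ES cells. In iPS cells over MEFs they had 17% and 18.8%. Of 9 tested epithelial markers, all were lower in both MEFs and iPS cells than in ES cells. Their summed intensities were 437000 to 466000 in ES cells, 22600 to 23700 in MEFs and 31700 to 33700 in iPS cells. In iPS cells over MEFs, 4 of these markers were higher and 1 lower. Lamb3, Lama5, Itga3 and Itgb8 were also lower in both, while Lama3 rose by 1.23 in iPS cells and Itgb4 was called lower in MEFs only. Of 9 tested muscle markers, 7 were higher in MEFs (607000 to 640000, against 162000 to 289000 in ES cells), beside the higher Itga7 and Lama2, and 1 was higher and 5 lower in iPS cells (20800 to 24500). Of 8 tested endothelial markers, 2 were higher and 1 lower in MEFs, and 3 higher and 2 lower in iPS cells, with sums of 7030 to 7150 in ES cells, 7340 to 7560 in MEFs and 2190 to 2220 in iPS cells. Of 11 tested markers of primitive endoderm, which makes laminin in the embryo, 5 were higher and 2 lower in MEFs, and 2 higher and 1 lower in iPS cells, with sums of 2810 to 2960 in ES cells, 15600 to 15800 in MEFs and 2720 to 2770 in iPS cells. Of 6 tested platelet markers, 2 were higher and 0 lower in MEFs, and 0 higher and 1 lower in iPS cells (744 to 780, 1750 to 1780 and 680 to 693 in ES cells, MEFs and iPS cells), beside Itga2b and Itgb3. The part of any of these cell types in the integrin and laminin values was not tested.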

How the data were processed

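The authors read the arrays with Agilent Feature Extraction 10.5.1.1, per the file headers. The deposited files give mean spot and local background intensity per channel, not normalized, and a log10 ratio of red over green made by that software. The deposited series table was identical to that log10 ratio. In limma 3.58.1 (R 4.3.3; the data.table package at 1.17.8), intensities were background-corrected by normexp (offset 50) over unmarked spots and loess-normalized within arrays (span 0.3, controls at weight 0). Controls and marked spots were left out and spots of a probe averaged. The offset shrinks ratios of dim probes. The order of marking and fitting was set after counts under both were seen.

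One coefficient per group was fitted with lmFit and eBayes (2 residual, 4.91 prior degrees of freedom), each ratio over ES tested against 0 and iPS over MEF as the difference. The ratio against 0 leaves out the ES cells' own spread. Dyes were not swapped, so dye effects stay in ratios over ES cells, and all arrays lay on 1 slide and in 1 scan. Probes not well above background on any array of a group have a bound only ("at least"), from per-channel levels (loess, then Aquantile). The dim side was set to the lowest signal well above background or, where higher, to the probe's own level. Where its own level was used throughout, the bound is the measured ratio, as for Lama2 in MEFs over ES cells (11.4). All these bounds are open to dye bias, and none is given where it exceeded the fitted fold. Ratios per array, and values under other settings, are printed as obtained, also for such probes. With 2 arrays per group, their number limits the precision.

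The members, the 4 partner lists and the 8 marker lists were chosen with earlier results of these data known. One member is counted but not reported here by itself or plotted; all others are named. Values per array are given for the 6 largest called rises and falls in each comparison and for genes whose probes disagree. Of each partner list, the 2 largest called rises and falls are named. Alternatives changed the background correction, scaling, filter, marked spots, probes per gene, minimum fold, replicates and replicate block. The method was tested on simulated data. RefSeq gene names were found for 24375 probes by accession.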

Additional observations from a re-analysis of the deposited data

Results flagged for a closer look

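For 5 genes, both MEF arrays lay on one side of ES cells and both iPS arrays on the other, with a change called in each group. Between iPS cells and MEFs they differed by -3.62 (Itga8), -3.55 (Itgb1), -3.49 (Lama4), -3.09 (Lamb2) and 2.71 (Itgae) on the log2 scale as fitted. The limma fit called each difference, but these genes were picked for opposite calls over ES cells. A call between iPS cells and MEFs was thus largely built in and adds no separate evidence. The share of all tested genes with such opposite calls is not given here. Itgb1 and Itga8 showed the opposite calls on 2 probes each. For Lama4, the iPS side was not well above background, so its size is not measured, and for Itgae the MEF side was on 1 of 2 arrays.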

How the results depend on the processing

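Among the 28 genes, the calls of all 3 comparisons were as given with quantile normalization over channels, with no filter, with missing arrays allowed, with 1 probe a gene and with the replicate block. With the stricter filter they held for the genes left. The replicate block left 17 rises and 10 falls among MEF probes, 6 and 14 for iPS over ES and 7 and 19 for iPS over MEF; the labels do not say that the numbers pair samples, and deviations correlated at -0.11. A crossed replicate block, added after seeing that value, gave the same counts (17 and 10, 6 and 14, 7 and 19).

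Normexp over all spots, and likewise marked spots kept, gave 1 rise and 0 falls in MEFs, 5 falls for iPS over ES, and 3 rises and 5 falls for iPS over MEF, and turned Itgb4 (-0.07) and Lamb3 (-0.63) in iPS over MEF. Over all probes they called 51 and 49 in MEFs (200 probes in all with marked spots kept), 1502 and 1815 or 1675 and 2027 for iPS over ES, and 1256 and 1470 or 1419 and 1667 for iPS over MEF. The stricter filter, which tested 30 of the probes, gave 11 rises in MEFs, 2 for iPS over ES and 4 for iPS over MEF. With no minimum fold, the counts were 26 and 19, 12 and 25, and 16 rises for iPS over MEF.

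The scanner's log ratio turned Itga2b (-0.09) and Itgb2 (0.04) in iPS over ES and Lamb3 (-0.10) in iPS over MEF, and over all probes called 4884 and 5470, 4073 and 4332, and 6627 and 5859 (in place of 3174 and 3095, 1989 and 2663, and 3828 and 4406), with a median shift of 0.14 in the last. It also called Itgb2 (1.76), Lama1 (-1.74) and Lama3 (-1.20) in MEFs, Itga4 (-1.71) and Itgal (1.15) in iPS over ES, and Itga2b (-1.08) and Itgb2 (-1.72) in iPS over MEF. Median centring shifted all probes by a median of 0.16 in MEFs and 0.14 in iPS cells, which raised the share of calls that were higher from 50.6% to 70% and from 42.8% to 61.5% (4716 and 2022, 3225 and 2022), and turned Lamc1 (0.33), Itga6 (0.33) and Itgb2 (0.01). Relative to that shift they stood at 0.17, 0.19 and -0.13. Leaving out 1 array gave 17 rises and 10 to 11 falls in MEFs, 5 to 6 and 13 to 14 for iPS over ES, and 7 to 8 and 19 for iPS over MEF. Lamb3 in iPS over MEF ran from -0.19 (without iPS replicate 2) to 0.32 and was -0.01 without MEF replicate 1; Itga2b in iPS over ES ran from -0.05 (without iPS replicate 1) to 0.11, and Itgb2 from -0.19 to 0.13 (without iPS replicate 1). With normexp over all spots and without MEF replicate 1, Lamb3 in iPS over MEF was -0.02. The cause of the changes under other scalings was not tested. Ratios of probes near background are limited by their signal.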
